A study of Saccharomyces cerevisiae with 12 samples.

Results

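The transcript response of a P-body mutant of the budding yeast Saccharomyces cerevisiae to sodium perchlorate was followed in 4 RNA-seq libraries of the 12 in the series. The mutant, edc3∆lsm4∆C, has no EDC3 gene, and its Lsm4 is made without the glutamine- and asparagine-rich C terminus. It was sampled in 2 libraries grown continuously with 100 mM NaClO4 and 2 libraries grown without it, all in medium lacking uracil at 30 °C to an OD600 of 0.4 to 0.5. Members were all transcripts with a mean of at least 10 normalized counts over these 4 libraries, which left 5670 of 5940. Wild-type (WT) BY4741 cells grown the same way, with perchlorate (2 libraries) or untreated (2 libraries), were used to ask where the response differed. No library with another sodium salt was used, so an effect of perchlorate cannot be told apart from one of sodium or osmolarity. The labels do not say whether replicates were separate cultures, so the spread between these libraries may be technical. Each SE and p-value rests on that spread after moderation across transcripts, not on the transcript's own libraries alone.

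P-bodies are cytoplasmic condensates of untranslated mRNA with the decapping enzyme and its activators. Edc3 is a scaffold that binds the decapping enzyme, and the tail of Lsm4 promotes aggregation, so that yeast lacking both form few visible P-bodies. Perchlorate is an oxidizing, chaotropic anion, and a salt of it added to the medium also raises osmolarity. Yeast meets osmotic stress by making glycerol under the Hog1 kinase, and meets many stresses through Msn2 and Msn4, which activate general stress genes while ribosome genes are repressed.

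Depth was 14429449 to 15483920 transcript reads per mutant library, and 5875 to 5896 transcripts had a read in each. Across transcripts, which are not independent replicates, the log2 values of replicates had a Pearson r of 0.994 with perchlorate and 0.993 untreated. The chi-square between replicates was 16.8 times its degrees of freedom with perchlorate and 16.6 times untreated, above sampling noise. EDC3 had 1 and 1 reads in the perchlorate libraries and 2 and 4 in the untreated ones, against 745 to 1073 in WT. LSM4 had 696 and 709 reads with perchlorate and 705 and 710 untreated, and it did not pass the test (adjusted p = 0.501). Its reads, summed over the gene, cannot show whether the tail is missing. The mutant libraries are labelled BY4741, an a-type strain known to lack LEU2 and MET17. They nevertheless held 5366 to 6398 reads of LEU2 and 8873 to 30889 of MET17. The summed reads of 4 alpha-cell genes were 9413 and 10196 with perchlorate and 28805 and 32722 untreated, against 539 and 537, and 502 and 433, for 7 a-cell genes. In the WT libraries the order was the other way, with 9726 to 26831 reads of a-cell genes and 576 to 938 of alpha-cell genes. Most of the latter were reads of SAG1, with 647 and 522 in WT with perchlorate and 438 and 433 untreated. In the mutant SAG1 had 435 and 400 reads with perchlorate and 792 and 1157 untreated, so it did not separate the strains. Each of the other alpha-cell genes had more reads in every mutant library than in any WT library. Mutant and WT therefore differ in mating type and nutritional markers as well as in EDC3 and LSM4, and these cannot be told apart.

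With perchlorate, 1912 of the 5670 transcripts changed in the mutant, 33.7% of those tested, by limma on log2 of the normalized count plus 1 with Benjamini-Hochberg adjusted p under 0.05. Of these, 1020 rose (18.0%) and 892 fell (15.7%). Rises were the larger changes: 315 transcripts rose at least 2-fold and 50 fell at least 2-fold, 98 rose and 4 fell at least 4-fold, and 24 rose at least 8-fold. Most calls were smaller than that, as 1547 of them stayed below 2-fold and the median absolute log2 change of a called transcript was 0.51, against a median standard error of 0.108 over all transcripts tested. In bulk RNA a lower count can mean fewer cells of a kind or less RNA per cell, which cannot be told apart. Scaling by total counts in place of the authors' size factors gave 1387 rises and 548 falls, so the split of small changes depends on the scaling. All fold changes are perchlorate over untreated on the log2 scale.

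**Figure D1:**
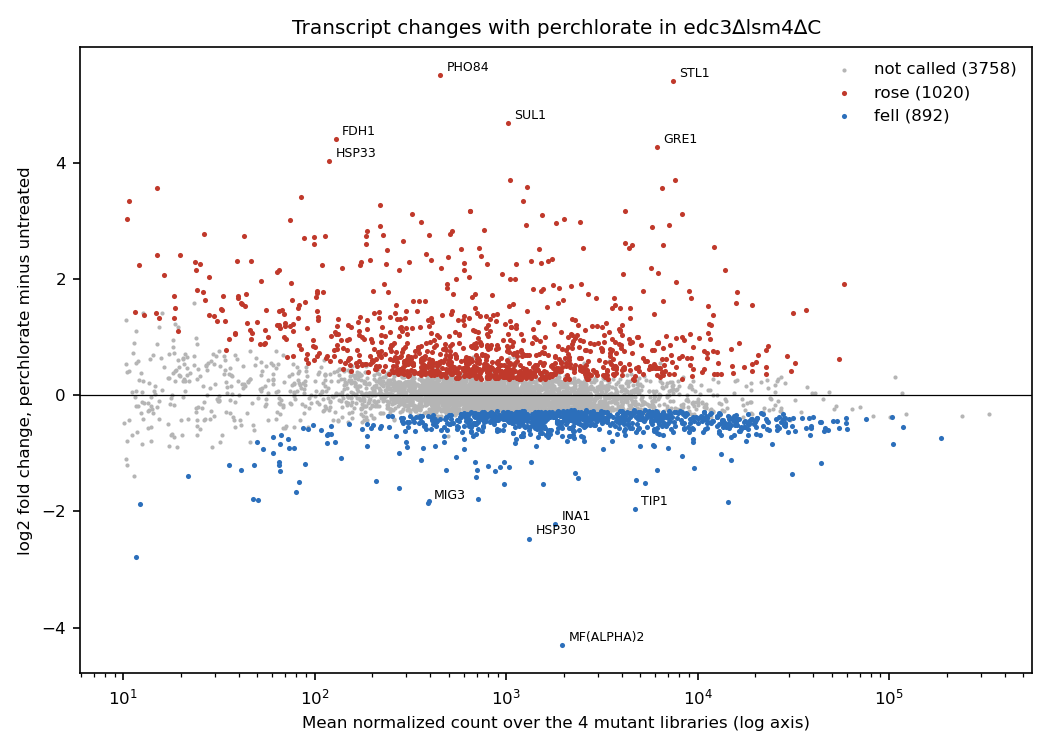
Log2 fold change of each transcript (vertical axis) against its mean normalized count over the 4 mutant libraries (horizontal, log axis), with transcripts that rose in red (1020), fell in blue (892) or were not called in grey (3758). Rises reach 5.50 (PHO84) while the largest fall is -4.30 (MF(ALPHA)2), and the called falls of highly expressed transcripts lie mostly between 0 and -1.

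Among transcripts with a mean of at least 50 normalized counts, those that rose most encoded transporters, stress effectors and enzymes of sulfur, sugar phosphate and vitamin metabolism. PHO84 (YML123C), the high-affinity phosphate transporter, had 739.7 and 1030.3 normalized counts in the perchlorate libraries, against 15.02 and 22.18 in the untreated libraries. Its log2 fold change was 5.50 ± 0.22 (SE; adjusted p = 5.15e-07), and it is uncertain because a non-coding RNA gene overlaps it and the strand counted is not stated. STL1 (YDR536W), a proton symporter that takes up glycerol, had 14195 and 14792 normalized counts in the perchlorate libraries, against 366 and 314 in the untreated libraries, a change of 5.41 ± 0.10 (SE; adjusted p = 8.03e-09). SUL1 (YBR294W), a sulfate permease, had 1615 and 2328 normalized counts in the perchlorate libraries, against 65.1 and 85.6 in the untreated libraries (4.68 ± 0.19). GRE1 (YPL223C), a hydrophilin induced by drying, had 10825 and 12387 normalized counts in the perchlorate libraries, against 602 and 597 in the untreated libraries (4.27 ± 0.10). For each of these 4 genes both perchlorate libraries lay above both untreated libraries by more than 10-fold. The 15 largest changes in each direction were chosen among transcripts whose groups do not overlap, which held for 3963 of the 5670 (69.9%).

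Further down the 15 largest rises stood enzymes of sugar phosphate metabolism. TKL2 (YBR117C), the minor transketolase, had 13554 and 14520.3 normalized counts in the perchlorate libraries, against 1332 and 874 in the untreated libraries (3.70 ± 0.17), and NQM1 (YGR043C), a transaldolase, had 12198 and 11795 normalized counts in the perchlorate libraries, against 1112 and 923 in the untreated libraries (3.56 ± 0.11). MET2 (YNL277W), which starts methionine synthesis from homoserine, rose by 3.58 ± 0.10, and YCT1 (YLL055W), a cysteine transporter, by 3.34 ± 0.19. SNO1 (YMR095C), a subunit of the vitamin B6 synthase, rose by 3.28 ± 0.21. PAI3 (YMR174C), an inhibitor of the vacuolar protease Pep4, and SIP18 (YMR175W), a hydrophilin, rose by 3.17 ± 0.14 and 3.16 ± 0.20. The list also held the formate dehydrogenase FDH1 (4.40 ± 0.24) and the DJ-1 family genes HSP33 (4.04 ± 0.23) and HSP32 (3.40 ± 0.24), which are uncertain because near-identical copies exist. SPS100 (3.71 ± 0.18), a spore wall gene, overlaps a non-coding RNA gene and is uncertain too.

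Falls were led by pheromone, surface and membrane genes. MF(ALPHA)2 (YGL089C), the minor alpha-factor gene, had 142 and 238 normalized counts in the perchlorate libraries, against 2922 and 4525 in the untreated libraries, and fell by 4.30 ± 0.25 (SE; adjusted p = 3.17e-06) on the log2 scale. HSP30 (YCR021C), a plasma membrane protein that restrains the proton pump, had 370.3 and 399.6 normalized counts in the perchlorate libraries, against 3004 and 1509 in the untreated libraries (-2.47 ± 0.25). Its untreated libraries lay farther apart than its perchlorate libraries. INA1 (YLR413W), a membrane protein of the Sur7 type, had 644 and 626 normalized counts in the perchlorate libraries, against 2948 and 2987 in the untreated libraries (-2.22 ± 0.09). TIP1 (YBR067C), a cell wall mannoprotein, had 1984 and 1861 normalized counts in the perchlorate libraries, against 7918 and 7042 in the untreated libraries (-1.96 ± 0.10). MIG3, a repressor of the Mig family, fell by 1.85 ± 0.15 (SE; adjusted p = 2.99e-05), the low-affinity iron transporter FET4 was at -1.82 ± 0.14 (SE; adjusted p = 1.72e-05), and the cell wall transglycosylase UTR2 and the phospholipase PLB2 were at -1.51 ± 0.10 and -1.52 ± 0.09. The others among the 15 largest falls were MF(ALPHA)1 (-1.83 ± 0.12, not called with a spread from the 8 mutant and WT libraries, adjusted p = 0.0618), the transcription factor gene MGA1 (-1.53 ± 0.29), TDA6 (-1.59 ± 0.17), MPF1 (-1.78 ± 0.24), COS12 (-1.49 ± 0.21), YDR344C (-1.80 ± 0.30) and YOL014W (-1.67 ± 0.20). In that spread the WT libraries held 12 and 60 reads of MF(ALPHA)1 with perchlorate and 7 and 4 untreated, against 6140 to 22817 in the mutant.

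**Figure D2:**
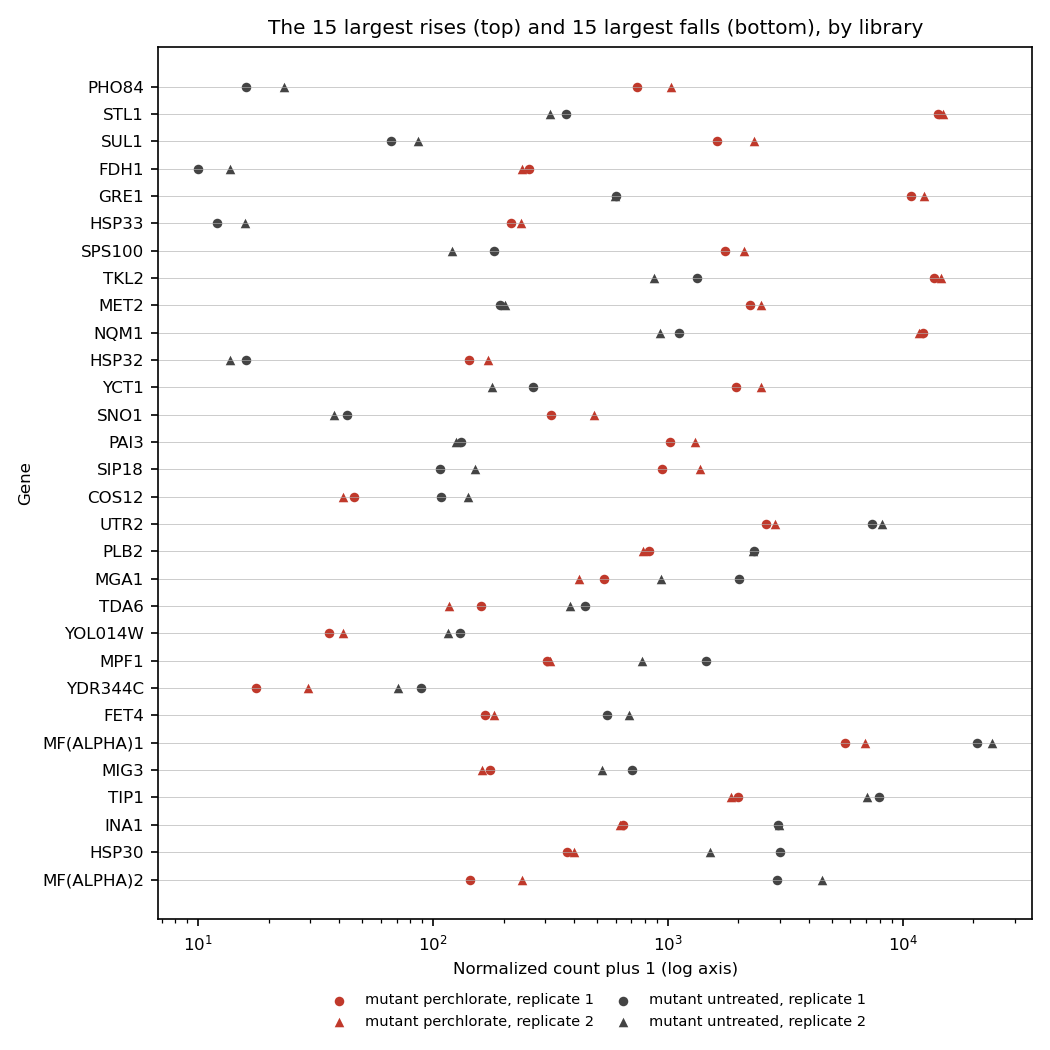
Normalized count plus 1 (horizontal, log axis) in each of the 4 mutant libraries for the 15 largest rises and 15 largest falls, with perchlorate in red and untreated in dark grey and replicates 1 and 2 as circles and triangles. Genes were chosen for groups that do not overlap; untreated replicates lie farther apart than perchlorate replicates for HSP30, MPF1 and MGA1.

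Of 4 genes that make glycerol, the osmolyte of yeast, 3 rose with perchlorate. The glycerol-3-phosphate dehydrogenase GPD1 had 51528 and 55817 normalized counts in the perchlorate libraries, against 22006 and 17054 in the untreated libraries (1.47 ± 0.14), and the phosphatases GPP2 and GPP1 of the next step rose by 1.54 ± 0.09 and 0.55 ± 0.10. GPD2, the dehydrogenase tied to anaerobic growth, was not called (adjusted p = 0.256). Of 12 genes for glycerol transport and use, 5 rose, among them STL1, the mitochondrial dehydrogenase GUT2 (1.50 ± 0.17), the dihydroxyacetone kinase DAK1 (1.39 ± 0.10) and the glycerol dehydrogenase GCY1 (1.30 ± 0.09), and GUP2 fell (-0.91 ± 0.22). Of 22 genes of the Hog1 signalling branch itself, 4 rose and 2 fell, shares close to or below the 18.0% and 15.7% of all transcripts, with the kinase RCK1 highest at 1.45 ± 0.23. That list gave 2 rises without perchlorate replicate 1 or untreated replicate 2 or with a spread from 8 libraries, 1 fall without untreated replicate 1 and 4 falls without untreated replicate 2. Without perchlorate replicate 1 no gene for glycerol transport and use fell.

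General stress effectors rose almost as a block. In a list of 31, 27 rose and 0 fell, against the 18.0% and 15.7% of all transcripts, with a median log2 change of 1.51. They held 2.59% and 2.55% of all reads in the perchlorate libraries, against 1.15% and 0.906% in the untreated libraries. Largest after PAI3 were the aldehyde dehydrogenase ALD3 (3.12 ± 0.16), the mitochondrial protein FMP16 (3.11 ± 0.10) and the mating projection protein HBT1 (2.90 ± 0.12). The hydrophilin HSP12, which protects membranes, had 89530.3 and 94266 normalized counts in the perchlorate libraries, against 25042 and 23953 in the untreated libraries (1.91 ± 0.11). Catalase T, CTT1, had 25839 and 23741 normalized counts in the perchlorate libraries, against 9217 and 5703 in the untreated libraries (1.77 ± 0.19). Untreated replicate 1 lay above untreated replicate 2 in 26 of the 27 risers, while perchlorate replicate 1 lay above replicate 2 in 10 of them. Without untreated replicate 2 the list held 3 falls.

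Genes that make and break the stress sugar trehalose rose in 6 of 7 cases, led by TPS2 (0.98 ± 0.18), TPS1 (0.89 ± 0.15), TSL1 (0.80 ± 0.22) and NTH2 (0.80 ± 0.10). With a spread from the 8 mutant and WT libraries 2 of the 7 rose, and the calls of TPS2 (adjusted p = 0.0582) and TSL1 (0.108) ended. TSL1 lost its call without untreated replicate 2 (adjusted p = 0.0822). Glycogen genes rose in 4 of 13 cases, led by the debranching enzyme GDB1 at 1.11 ± 0.18; the rises were 2 with a spread from 8 libraries and 9 without untreated replicate 1, and without untreated replicate 2 there were 3 falls. All 4 DJ-1 family genes rose, of which HSP31, a methylglyoxalase with no near-identical copy, had 4855 and 4456 normalized counts in the perchlorate libraries, against 2011 and 1898 in the untreated libraries (1.25 ± 0.09).

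The promoter of PAI3 is shown because it carries the stress response element, the site of Msn2 and Msn4. Promoter windows ran from 250 bases before to 50 bases after the start codon in the RefSeq R64 assembly, whose annotation held all 5943 transcript IDs of the mutant's table; R64 is taken as the build on that ground. The letters CCCCT were searched on both strands, and capitals mark the match.

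PAI3, chrXIII:610316-610615, minus strand, R64: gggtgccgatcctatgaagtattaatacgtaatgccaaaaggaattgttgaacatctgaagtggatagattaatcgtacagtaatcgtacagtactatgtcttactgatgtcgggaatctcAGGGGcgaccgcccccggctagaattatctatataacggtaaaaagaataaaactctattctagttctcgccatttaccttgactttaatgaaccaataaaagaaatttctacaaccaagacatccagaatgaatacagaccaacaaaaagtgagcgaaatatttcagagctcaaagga

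The match reads AGGGG on the gene's own strand, 129 bases before the start codon. CCCCT was present in 21 of 31 windows of the general stress effectors (67.7%). It was present in 33.7% of the windows of all transcripts that rose and in 16.3% of all that fell. At a change of at least 2-fold these shares were 36.1% for rises and 12.0% for falls (6 of 50), against 21.9% of all 5656 windows. A match describes letters only.

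Sulfate genes rose without exception. Cells take up sulfate, activate and reduce it to sulfide, and join the sulfide to a homoserine derivative to make homocysteine and methionine; Cbf1, Met31 and Met32 with Met4 control these genes. All 11 genes of sulfate uptake and reduction rose, with a median log2 change of 2.28, and they held 0.270% and 0.284% of all reads in the perchlorate libraries, against 0.0517% and 0.0567% in the untreated libraries. SUL2, the second sulfate permease, had 3549 and 3601 normalized counts in the perchlorate libraries, against 469.6 and 406 in the untreated libraries (3.03 ± 0.10). MET3, the ATP sulfurylase, had 6674 and 7748 normalized counts in the perchlorate libraries, against 1072 and 1275 in the untreated libraries (2.62 ± 0.12), and MET10, a sulfite reductase subunit, had 7265 and 7712 normalized counts in the perchlorate libraries, against 1265 and 1302 in the untreated libraries (2.54 ± 0.09). In these 3 genes both perchlorate libraries were above both untreated libraries; groups did not overlap in 69.9% of all transcripts.

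Steps after sulfide were mixed. Of 13 methionine and methyl cycle genes 8 rose, MET2 most, and 2 fell. The homocysteine synthase MET17 had 25674 and 31325 normalized counts in the perchlorate libraries, against 8883 and 10485 in the untreated libraries (1.55 ± 0.13). That call ended with a spread from 8 libraries (adjusted p = 0.440). That spread includes the WT libraries, which held 0 and 51 reads of MET17 with perchlorate and 0 and 0 untreated. The methionine synthase MET6 rose by 1.42 ± 0.10 and the methylenetetrahydrofolate reductase MET13 by 1.19 ± 0.09, while SAH1 and SAM4 were at -0.56 ± 0.11 and -0.40 ± 0.09. For cysteine and glutathione 4 of 11 genes rose, the cystathionine beta-lyase STR3 most (1.37 ± 0.10). Uptake of sulfur compounds rose in 5 of 6 genes, with the methionine permease MUP1 at 1.21 ± 0.10 and the glutathione transporter OPT1 at 0.78 ± 0.10. Of the regulators, the cofactors MET28 and MET32 rose by 2.52 ± 0.13 and 2.24 ± 0.15, the ubiquitin ligase subunit MET30 by 0.94 ± 0.10, and MET31 fell by 0.56 ± 0.14 (SE; adjusted p = 0.0134), which was not called with a spread from 8 libraries (adjusted p = 0.107).

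Promoters of MET10 and MET17 are shown because these genes rose and carry the letters CACGTG, the core bound by Cbf1 (and by Pho4), or AACTGTG, the core bound by Met31 and Met32. Both strands were searched and matches are in capitals.

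MET10, chrVI:213062-213361, plus strand, R64: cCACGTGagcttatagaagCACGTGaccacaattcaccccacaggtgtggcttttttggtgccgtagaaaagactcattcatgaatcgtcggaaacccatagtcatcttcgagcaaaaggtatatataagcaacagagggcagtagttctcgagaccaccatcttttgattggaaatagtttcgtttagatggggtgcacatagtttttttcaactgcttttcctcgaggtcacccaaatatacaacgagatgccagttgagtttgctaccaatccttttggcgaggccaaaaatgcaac
MET17, chrXII:732292-732591, plus strand, R64: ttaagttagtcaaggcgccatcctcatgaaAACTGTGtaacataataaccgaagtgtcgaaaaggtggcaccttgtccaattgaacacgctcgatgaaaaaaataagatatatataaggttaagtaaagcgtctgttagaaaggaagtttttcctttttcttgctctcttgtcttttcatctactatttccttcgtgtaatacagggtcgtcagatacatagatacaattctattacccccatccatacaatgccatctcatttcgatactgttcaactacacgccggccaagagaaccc

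The MET10 window holds CACGTG 249 and 231 bases before the start codon, and the MET17 window holds AACTGTG 220 bases before it. CACGTG was present in 5 of 11 windows of the sulfate genes (45.5%) against 3.01% of all windows, and in 2 of 13 of the methionine list (15.4%). AACTGTG was present in 3 of 13 windows of the methionine list (23.1%) against 3.45% of all windows, and in 1 of 11 of the sulfate genes (9.09%).

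Of 6 phosphate uptake genes 2 rose and 1 fell, where 18.0% of all transcripts rose and 15.7% fell. The rises of the phosphatase list that follows were near the share of all transcripts. Beside PHO84, the sodium-coupled phosphate transporter PHO89 had 148 and 194 normalized counts in the perchlorate libraries, against 23.0 and 31.7 in the untreated libraries (2.60 ± 0.24), and the low-affinity vacuolar transporter PHO91 fell by 0.34 ± 0.09 (SE; adjusted p = 0.0216). The call of PHO91 ended without perchlorate replicate 2 (adjusted p = 0.0669) or untreated replicate 1 (0.0970). Of 10 phosphatase genes, 2 rose, PHM8 (1.03 ± 0.15) and DDP1 (0.33 ± 0.10); DDP1 lost its call without perchlorate replicate 1 (0.0646), perchlorate replicate 2 (0.148) or untreated replicate 2 (0.149).

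Sodium pump genes rose, and the main proton pump gene fell. The sodium pump genes ENA1 and ENA2 rose by 2.00 ± 0.11 and 1.02 ± 0.12, uncertain because ENA genes are near-identical, and HAL1, a regulator of salt tolerance, by 0.91 ± 0.14. PMA1, the main proton pump of the plasma membrane, had 95900.4 and 96242 normalized counts in the perchlorate libraries, against 138592 and 141697 in the untreated libraries (-0.54 ± 0.12), while its minor isoform PMA2 had 1661 and 1574 normalized counts in the perchlorate libraries, against 624 and 469 in the untreated libraries (1.58 ± 0.13). PMA1 lost its call without untreated replicate 1 (adjusted p = 0.0705) or replicate 2 (0.0909). Over the list of 20, 4 rose and 5 fell, against 18.0% and 15.7% of all transcripts; the falls were 2 without untreated replicate 1 or with total count scaling, which turns the list median positive, and 3 without untreated replicate 2 or with a spread from 8 libraries. Of 13 calcium and calcineurin genes 1 rose (CMP2, 0.53 ± 0.10) and 1 fell (CRZ1, -0.33 ± 0.10); the rises were 2 without perchlorate replicate 1 or untreated replicate 1, and the call of CRZ1 ended without perchlorate replicate 2 (0.193), without untreated replicate 1 (0.119) or with a spread from 8 libraries (0.0791).

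Copper genes rose in 5 of 8 cases, while iron and zinc genes gave about as many rises as falls. Of 28 iron genes 6 rose and 5 fell, against 18.0% and 15.7% of all transcripts, with the siderophore-binding mannoprotein FIT1 at 2.26 ± 0.17, the mRNA decay factor TIS11 at 1.34 ± 0.20 (not called with a spread from 8 libraries, adjusted p = 0.0501) and the scaffold ISU1 at 0.89 ± 0.11 among the rises. No copper gene fell, and the rises were led by the metallothionein CRS5 at 1.36 ± 0.18 and its activator CUP2 at 0.87 ± 0.09. Without untreated replicate 1 there was 1 fall in the copper list. Zinc genes gave 3 rises and 3 falls of 15, again near the shares of all transcripts, from COT1 (0.81 ± 0.09), a vacuolar zinc transporter, to IZH4 (-1.06 ± 0.12); the rises were 5 without perchlorate replicate 1 or untreated replicate 2.

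**Figure D3:**
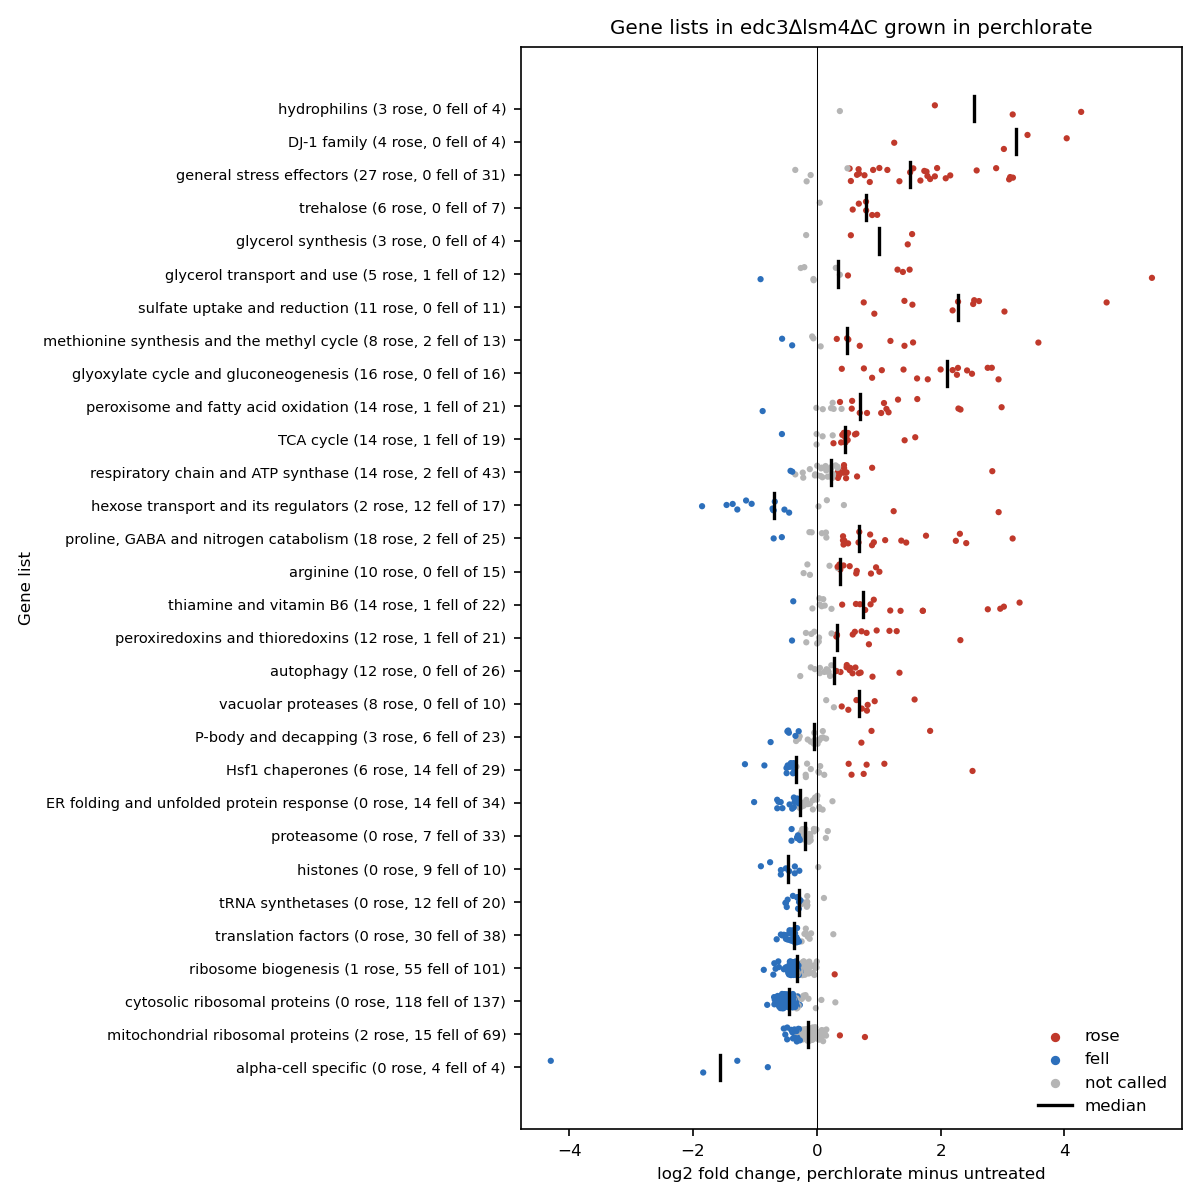
Log2 fold change (horizontal axis) of each tested member of 30 gene lists (rows), in red where it rose, blue where it fell and grey where it was not called, with the list median as a black bar. Sulfate, glyoxylate, general stress and DJ-1 genes lie to the right of 0, and ribosomal, translation, histone and alpha-cell genes to the left. Vertical scatter within a row has no meaning.

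Genes for carbon sources other than glucose rose, and glucose uptake genes fell. All 16 genes of the glyoxylate cycle, gluconeogenesis and carnitine shuttle rose, with a median of 2.10. The cytosolic isocitrate dehydrogenase IDP2 had 2238 and 2255 normalized counts in the perchlorate libraries, against 306 and 279.9 in the untreated libraries (2.94 ± 0.10), the malate synthase MLS1 362 and 426 with perchlorate against 44.1 and 73.9 untreated (2.76 ± 0.23), and the succinate-fumarate carrier SFC1 329 and 329.6 with perchlorate against 40.0 and 51.8 untreated (2.83 ± 0.17). The acylcarnitine carrier CRC1 rose by 2.51 ± 0.18. In the peroxisome and fatty acid oxidation list 14 of 21 rose and 1 fell (FAA4, -0.87 ± 0.10). There the acyl-CoA oxidase POX1 rose by 2.99 ± 0.19, the import receptor PEX18 by 2.32 ± 0.15, the thiolase POT1 by 2.29 ± 0.12 and the dienoyl-CoA reductase SPS19 by 1.62 ± 0.13. Carboxylate and acetate transporters rose in 7 of 11 cases, among them the lactate permease JEN1 (2.35 ± 0.29) and the acetate transporters ADY2 (1.69 ± 0.19) and ATO2 (1.50 ± 0.14).

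Hexose transport and its regulators fell in 12 of 17 cases and rose in 2; the falls were 7 with a spread from 8 libraries. HXT3, a low-affinity transporter, had 18455 and 16069.9 normalized counts in the perchlorate libraries, against 50917 and 38312 in the untreated libraries (-1.36 ± 0.15), and HXT6, uncertain because HXT7 is near-identical, fell by 1.46 ± 0.26 (SE; adjusted p = 0.00340), a call that ended with that spread (0.0614). HXT5, a transporter of slow-growing cells, had 12560.1 and 12399.8 normalized counts in the perchlorate libraries, against 2405 and 1103 in the untreated libraries (2.94 ± 0.28), and GAL2, the galactose permease, rose by 1.24 ± 0.29. The repressors MIG2 and MIG1 fell by 1.14 ± 0.11 (SE; adjusted p = 1.09e-04) and 0.70 ± 0.11 (SE; adjusted p = 0.00192), after MIG3. Of 29 glycolysis and fermentation genes 6 rose and 8 fell, where 18.0% of all transcripts rose and 15.7% fell, so the rises were near that share. Among the rises were the pyruvate decarboxylase PDC6 at 2.60 ± 0.26, the phosphoglycerate mutase paralog GPM2 at 1.44 ± 0.13 and the glyceraldehyde-3-phosphate dehydrogenase TDH1 at 0.99 ± 0.13. The alcohol dehydrogenase ADH1 fell, at -0.84 ± 0.12. Without untreated replicate 1 that list held 10 rises and 4 falls.

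Mitochondrial oxidation rose in parts. Of 19 TCA cycle genes 14 rose and 1 fell, with the pyruvate carboxylase PYC1 at 1.59 ± 0.11 and the citrate synthases CIT3 at 1.42 ± 0.15 and CIT1 at 0.64 ± 0.14, and PYC2 as the fall (-0.56 ± 0.10). Without untreated replicate 2 there were 9 rises, and untreated replicate 1 lay above replicate 2 in 13 of the 14. Of 43 respiratory chain and ATP synthase genes 14 rose and 2 fell; the external NADH dehydrogenase NDE2 stood apart at 2.83 ± 0.17, and the next, the ATPase-stabilizing factor STF1, was at 0.89 ± 0.10. The rises were 8 without perchlorate replicate 2 and 27 when scaled by total counts. The falls were 1 without perchlorate replicate 2 or untreated replicate 1 and 4 without untreated replicate 2.

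Partner enzymes often moved apart. In 50 pairs of isozymes or paralogs, the first-placed member, an inducible or minor form in many pairs but not all, had the higher log2 change in 41. The order was set by hand and may have been set with earlier results of these data known, so this count is a description and no test. Both members were called in opposite directions in 11 pairs, both rose in 9 and both fell in 1. The widest was the 6-phosphogluconate dehydrogenase pair of the pentose phosphate pathway, in which GND2 had 4007 and 4565 normalized counts in the perchlorate libraries, against 586 and 502 in the untreated libraries (2.98 ± 0.11), and GND1 had 9474 and 9348 normalized counts in the perchlorate libraries, against 20689 and 20181 in the untreated libraries (-1.12 ± 0.09). SOL4 and SOL3, the lactonases one step earlier, were at 1.31 ± 0.17 and -0.37 ± 0.09, and the cytosolic peroxiredoxins TSA2 and TSA1 at 2.32 ± 0.09 and -0.40 ± 0.10. Opposite calls were also made for the Hsp70 genes SSA4 (1.09 ± 0.10) and SSA2 (-1.16 ± 0.11, uncertain because of a near-identical copy), the Hsp110 genes SSE2 (0.80 ± 0.15) and SSE1 (-0.42 ± 0.10), the acetyl-CoA synthetases ACS1 (1.79 ± 0.20) and ACS2 (-0.42 ± 0.10), and the enolases ENO1 (0.63 ± 0.13) and ENO2 (-0.74 ± 0.14).

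In 3 pairs the first member fell and the partner rose. SER3, a phosphoglycerate dehydrogenase of serine synthesis, uncertain because the non-coding RNA gene that represses it overlaps, had 1188 and 1371 normalized counts in the perchlorate libraries, against 3772 and 3101 in the untreated libraries (-1.42 ± 0.12), and its paralog SER33 had 3390.1 and 3704 normalized counts in the perchlorate libraries, against 1602 and 1654 in the untreated libraries (1.12 ± 0.09). The isopropylmalate synthases LEU9 and LEU4 were at -0.79 ± 0.09 and 0.48 ± 0.10, and PYC2 and PYC1 were described above. Among these pairs, calls ended without untreated replicate 1 for ACS2 (adjusted p = 0.105) and TSA1 (0.0894), without untreated replicate 2 for TSA1 (0.0773), ENO1 (0.0656) and SOL3 (0.0518), and without perchlorate replicate 1 for SOL3 (0.0711). With a spread from 8 libraries the calls of SOL3 (adjusted p = 0.0645) and SSE2 (0.0502) ended.

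**Figure D4:**
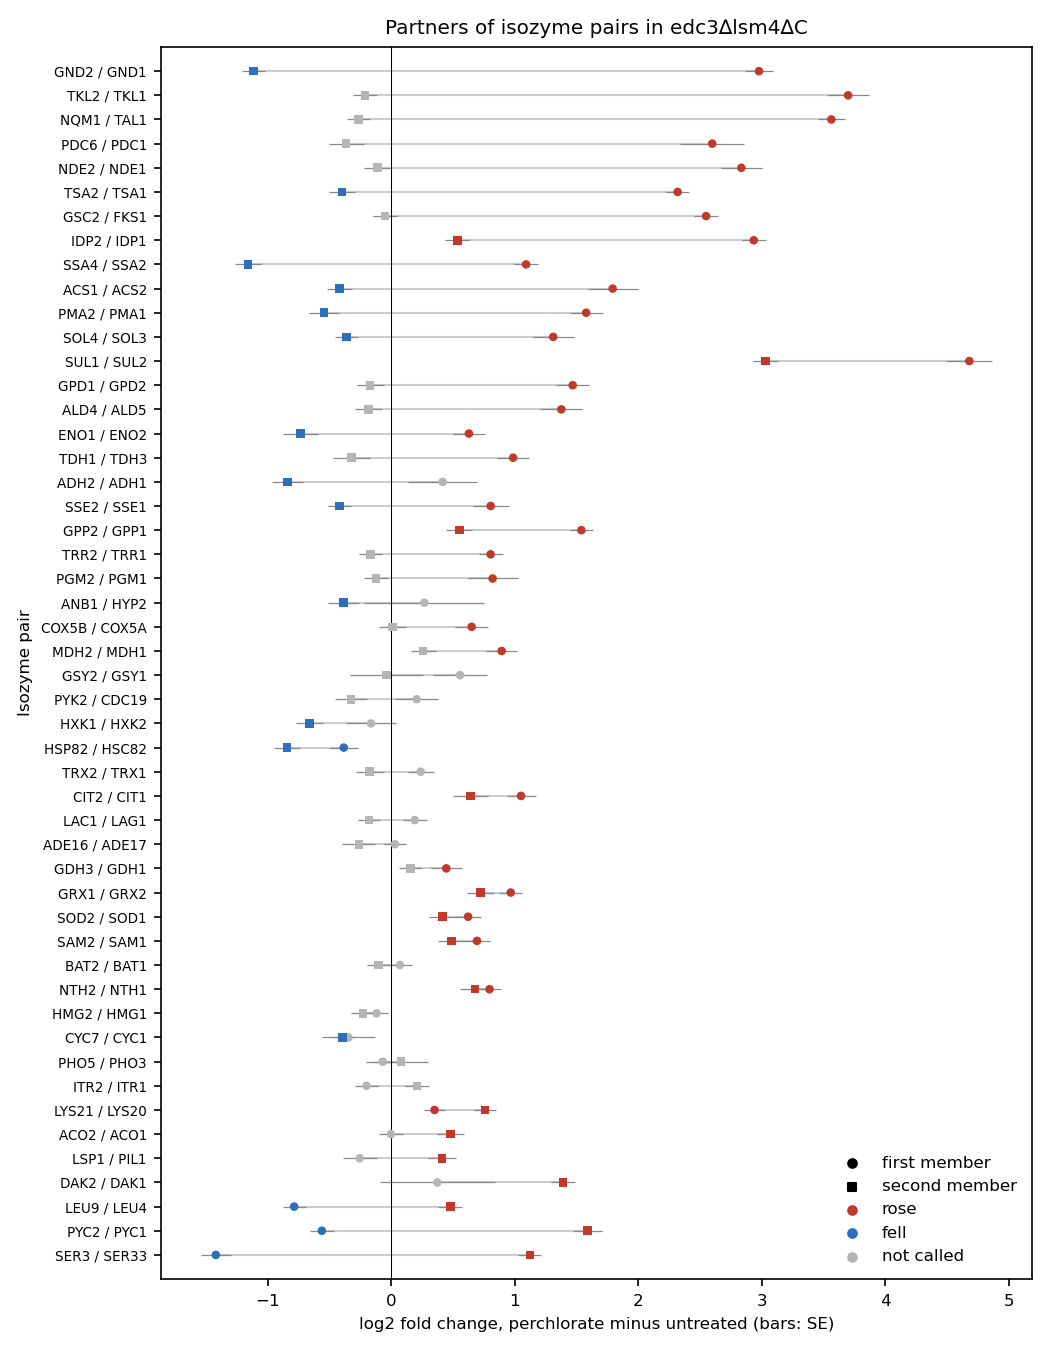
Log2 fold change with its SE (horizontal axis) of both members of 50 isozyme or paralog pairs (rows), the first-named as a circle and the partner as a square, in red where it rose, blue where it fell and grey where it was not called. GND2 and GND1 lie at 2.98 and -1.12 at the top, and SER3 and SER33 at -1.42 and 1.12 at the bottom.

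Genes that take up and use poor nitrogen sources rose in most cases. In the list for proline, GABA and nitrogen catabolism 18 of 25 rose and 2 fell (DUR12 and ASP1). PUT4, the proline permease, had 7746 and 7258 normalized counts in the perchlorate libraries, against 1004 and 696 in the untreated libraries (3.16 ± 0.15), and GAP1, the general amino acid permease, had 2372 and 2112 normalized counts in the perchlorate libraries, against 499 and 407 in the untreated libraries (2.31 ± 0.12). The allantoin pathway gene DAL3 rose by 2.25 ± 0.20 and DAL80, a GATA repressor with few reads, by 2.41 ± 0.55. Of 15 arginine genes 10 rose and none fell, led by the acetylglutamate kinase gene ARG56 at 1.01 ± 0.09 and the carbamoyl phosphate synthase gene CPA1 at 0.96 ± 0.11; without untreated replicate 2 there were 2 falls. Serine, glycine and folate genes rose in 9 of 13 cases and fell in 2, with the glycine cleavage subunit GCV1 at 1.20 ± 0.11. The 2 falls of the serine list were 1 without perchlorate replicate 1 or untreated replicate 2. Of all transcripts 18.0% rose and 15.7% fell. Of 9 lysine genes 4 rose, while the aromatic, branched chain and histidine lists that follow were close to or below those shares. Of 16 aromatic amino acid genes 3 rose and 2 fell, and the falls were 0 without perchlorate replicate 1 or untreated replicate 2. Of 13 branched chain genes 2 rose and 1 fell, and the rises were 1 without perchlorate replicate 2 or untreated replicate 1. For histidine 1 of 7 genes rose, HIS5 (0.36 ± 0.10), a call that ended without perchlorate replicate 2 (adjusted p = 0.118) or untreated replicate 2 (0.0666); the histidine rises were 2 without perchlorate replicate 1 and 3 without untreated replicate 1, and there was 1 fall without perchlorate replicate 2. The phenylpyruvate decarboxylase ARO10, which belongs to amino acid breakdown, had 6456 and 6551 normalized counts in the perchlorate libraries, against 2439 and 2160.1 in the untreated libraries (1.50 ± 0.10).

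Most thiamine and vitamin B6 genes rose. Of 22 thiamine and vitamin B6 genes 14 rose and 1 fell, THI7 (-0.38 ± 0.13), which was not called without perchlorate replicate 2 or untreated replicate 2. SNZ1, the partner subunit of Sno1, had 2494 and 3988 normalized counts in the perchlorate libraries, against 417 and 389.8 in the untreated libraries (2.96 ± 0.18), and THI4, the thiazole synthase, had 600.2 and 775 normalized counts in the perchlorate libraries, against 93.1 and 107 in the untreated libraries (2.76 ± 0.15). Several others of the list have near-identical copies and are uncertain. Biotin genes rose in 3 of 5 cases, with the biotin synthase BIO2 at 0.59 ± 0.11. Among 24 purine genes 7 fell and 1 rose, with the IMP dehydrogenases IMD2 and IMD4 (the last uncertain, overlapping a non-coding RNA gene) at -0.80 ± 0.12 and -0.67 ± 0.10, and the adenine deaminase AAH1 at -0.54 ± 0.13. There were 4 purine falls without perchlorate replicate 1 or untreated replicate 2 and no rise without perchlorate replicate 2 or untreated replicate 2, and total count scaling gave 3 falls and 4 rises. Of 14 pyrimidine genes 4 fell and 2 rose, where 15.7% of all transcripts fell and 18.0% rose. The falls were led by the dihydroorotase URA4 (-0.62 ± 0.09) and the rises by the minor phosphoribosyltransferase URA10 (1.16 ± 0.13). There were fewer pyrimidine falls without untreated replicate 2 and fewer rises without perchlorate replicate 2.

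Most antioxidant enzymes rose. Of 21 peroxiredoxin, thioredoxin and glutaredoxin genes 12 rose and 1 fell, where TSA2 had 2781 and 2722 normalized counts in the perchlorate libraries, against 564 and 538 in the untreated libraries. The glutathione peroxidase GPX1 and the mitochondrial peroxiredoxin PRX1 rose by 1.29 ± 0.14 and 1.17 ± 0.10. Of 16 genes of superoxide and peroxide defence 10 rose and 1 fell. There the methylglyoxal reductase GRE2 had 6328 and 6843 normalized counts in the perchlorate libraries, against 1513 and 1594 in the untreated libraries (2.08 ± 0.09), and the flavohemoglobin YHB1 fell by 0.78 ± 0.10 (SE; adjusted p = 4.68e-04). Efflux pumps rose in 8 of 24 cases, led by AZR1 (2.15 ± 0.26), and fell in 3, led by the weak acid pump PDR12 (-0.75 ± 0.11). Of all transcripts 18.0% rose and 15.7% fell, and there were fewer efflux pump rises without untreated replicate 2.

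More folding genes fell than rose. Of 29 Hsf1-dependent chaperone genes 6 rose and 14 fell, and 8 fell with a spread from 8 libraries. HSP26, a small heat shock protein, had 2586 and 2471 normalized counts in the perchlorate libraries, against 382 and 509 in the untreated libraries (2.52 ± 0.13), while HSC82, the constitutive Hsp90, had 18263 and 16535 normalized counts in the perchlorate libraries, against 30682 and 31813 in the untreated libraries (-0.85 ± 0.10). In the endoplasmic reticulum 14 of 34 folding genes fell and none rose: KAR2, the luminal Hsp70, had 8840.4 and 8631 normalized counts in the perchlorate libraries, against 17237 and 18011 in the untreated libraries (-1.01 ± 0.09), and PMT2, EUG1 and ERO1, which mannosylate proteins and form disulfides, fell by 0.64 ± 0.09 (SE; adjusted p = 7.74e-04), 0.64 ± 0.10 (SE; adjusted p = 0.00156) and 0.62 ± 0.10 (SE; adjusted p = 0.00216). Without perchlorate replicate 1 there was 1 rise, and with total count scaling 9 falls and 1 rise. Proteasome genes fell in 7 of 33 cases, not far from the 15.7% of all transcripts, the lowest being RPN1 (-0.41 ± 0.10) and RPT2 (-0.41 ± 0.09). The proteasome falls were 3 without perchlorate replicate 1 or untreated replicate 2, 4 without untreated replicate 1 and 2 with total count scaling.

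Of 10 vacuolar protease and hydrolase genes 8 rose. The mannosidase AMS1 had 2895 and 2675 normalized counts in the perchlorate libraries, against 998 and 867 in the untreated libraries (1.58 ± 0.10), and the inhibitor PBI2 and the aminopeptidase APE1 rose by 0.94 ± 0.09 and 0.82 ± 0.12. Of 26 autophagy genes 12 rose and none fell, with the receptor ATG34 at 1.34 ± 0.14, the phagophore protein ATG8 at 0.90 ± 0.11 and the receptor ATG19 at 0.71 ± 0.10; 7 rose with a spread from 8 libraries.

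The translation machinery fell broadly but by little. Of 137 cytosolic ribosomal protein genes 118 fell and none rose, with a median of -0.45 and a lowest value of -0.80 ± 0.10 for RPS26B. They held 12.4% and 14.0% of all reads in the perchlorate libraries, against 16.6% and 17.8% in the untreated libraries. Untreated replicate 1 lay above untreated replicate 2 in 9 of the 118, and perchlorate replicate 1 above perchlorate replicate 2 in 1 of them, so replicate 1 was the lower in nearly every one in both groups. Without untreated replicate 2 the count was 72 and the median -0.40. Scaling by TMM or total counts gave 1 rise. Ribosome biogenesis genes fell in 55 of 101 cases, and 1 rose, BUD23 (0.29 ± 0.09), whose call ended whichever 1 library was left out. The small nucleolar ribonucleoprotein gene NOP58 had 4271 and 3998 normalized counts in the perchlorate libraries, against 7052 and 7936 in the untreated libraries (-0.86 ± 0.10), and NOP14, CBF5 and RRP5 fell by 0.70 ± 0.09 (SE; adjusted p = 4.09e-04), 0.69 ± 0.10 (SE; adjusted p = 8.39e-04) and 0.67 ± 0.10 (SE; adjusted p = 0.00102). The falls in that list were 21 without untreated replicate 2, 23 with a spread from 8 libraries and 24 with total count scaling.

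The promoter of NOP58 is shown for the motifs of this regulon, the PAC core GATGAG and the RRPE core AAATTTT, searched on both strands, with matches in capitals (overlapping RRPE matches run together).

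NOP58, chrXV:898311-898610, minus strand, R64: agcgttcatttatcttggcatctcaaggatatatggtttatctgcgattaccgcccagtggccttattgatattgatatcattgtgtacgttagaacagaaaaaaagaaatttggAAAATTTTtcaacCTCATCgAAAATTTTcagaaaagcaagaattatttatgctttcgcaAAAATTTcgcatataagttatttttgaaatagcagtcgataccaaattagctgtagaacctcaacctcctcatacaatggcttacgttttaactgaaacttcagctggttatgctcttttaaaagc

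The PAC core reads CTCATC on the gene's strand, 122 bases before the start codon, between RRPE matches that begin 135 and 115 bases before it. GATGAG was present in 95 of 101 windows of the biogenesis list (94.1%) and in 20.0% of all windows, and AAATTTT in 96 of 101 and in 24.0% of all. GATGAG was present in 23.7% of the windows of translation factors, in 10.9% of those of ribosomal proteins, below the share of all, and in 26.8% of those of transcripts that fell. In windows of translation factors AAATTTT was present in 73.7%, in those of ribosomal proteins in 29.9%, and in those of transcripts that fell in 39.2%. Among transcripts that fell at least 2-fold, GATGAG and AAATTTT were each present in 8 of 50 windows (16.0%), below the share of all.

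Translation factors fell in 30 of 38 cases and none rose. TIF4631, the eIF4G scaffold, had 5107 and 4397 normalized counts in the perchlorate libraries, against 7469.7 and 7382 in the untreated libraries (-0.65 ± 0.10), and the eIF3 subunit TIF35 fell by 0.58 ± 0.09 (SE; adjusted p = 0.00157). Without untreated replicate 2 the count was 18, and with total count scaling 19. Of 20 cytosolic tRNA synthetase genes 12 fell, led by WRS1 (-0.51 ± 0.09) and MES1 (-0.50 ± 0.09); this count was 6 without untreated replicate 1, and 5 without untreated replicate 2 or with total count scaling. RNA polymerase I and III genes fell in 11 of 29 cases, but in 6 without perchlorate replicate 1 and in 5 without untreated replicate 2 or with total count scaling. Mitochondrial ribosomal protein genes fell in 15 of 69 cases and rose in 2, against 15.7% and 18.0% of all transcripts, with 9 falls with a spread from 8 libraries, 6 falls without perchlorate replicate 1 or with total count scaling and 1 rise without untreated replicate 2. Histone genes fell in 9 of 10 cases, led by the H2A and H2B genes HTA1 and HTB1. HTA1 had 4612 and 5087 normalized counts in the perchlorate libraries, against 8838 and 9281 in the untreated libraries (-0.90 ± 0.10), and HTB1 had 6978 and 7093 normalized counts in the perchlorate libraries, against 12222 and 11519.9 in the untreated libraries (-0.75 ± 0.09).

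Genes for P-body proteins, the condensate the mutation affects, had a median log2 change of -0.05, or 0.04 with total count scaling. Of 23 P-body and decapping genes 3 rose and 6 fell, against 18.0% and 15.7% of all transcripts. The rises were the scavenger decapping factors DCS2 (1.83 ± 0.15) and DCS1 (0.88 ± 0.13) and the decapping activator EDC2 (0.72 ± 0.09), and the largest fall was the nuclear ring subunit LSM8, which had 53.6 and 54.8 normalized counts in the perchlorate libraries, against 91.1 and 91.9 in the untreated libraries (-0.75 ± 0.19). Without untreated replicate 2 there were 3 falls. Stress granule genes fell in 15 of 28 cases and 1 rose, IGO1 (0.32 ± 0.09), which was not called without perchlorate replicate 2 or untreated replicate 2; the RNA-binding NAB3 and WHI3 were at -0.71 ± 0.11 and -0.56 ± 0.09. Of 12 deadenylase genes 2 fell, which is about the 15.7% of all transcripts: CAF40 (-0.46 ± 0.10) and NOT3 (-0.38 ± 0.10). NOT3 lost its call without perchlorate replicate 2 (adjusted p = 0.107), and without untreated replicate 1 there was 1 rise. Exosome, Ski and surveillance genes fell in 7 of 21 cases, in 3 without perchlorate replicate 1 or untreated replicate 2 and in 4 without perchlorate replicate 2 or with a spread from 8 libraries. RPS28B, whose mRNA is decayed through Edc3 in wild-type yeast, had 12206 and 15276 normalized counts in the perchlorate libraries, against 17452 and 19003 in the untreated libraries (-0.42 ± 0.12), a call that ended without perchlorate replicate 1 (0.0722), without untreated replicate 2 (0.0889) or with a spread from 8 libraries (0.185). YRA1, the other known Edc3 substrate, was not called (adjusted p = 0.0862), but passed without perchlorate replicate 2 (0.0202).

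The phospholipid list changed in few members, and the cell wall list in shares close to those of all transcripts. GSC2, the stress-induced glucan synthase, had 21241 and 20339 normalized counts in the perchlorate libraries, against 3685 and 3419 in the untreated libraries (2.55 ± 0.09), in a cell wall list where 7 of 36 rose and 6 fell, close to the shares of all transcripts; the falls were 3 without untreated replicate 1 and 1 without untreated replicate 2. INO1, the inositol-phosphate synthase, had 8417 and 14132 normalized counts in the perchlorate libraries, against 1357 and 2404 in the untreated libraries (2.59 ± 0.28), in a list of inositol and phospholipid genes where 2 of 23 rose and 1 fell. There was 1 rise without perchlorate replicate 2, and there were 2 falls without perchlorate replicate 2 and none without untreated replicate 2. OLE1, the fatty acid desaturase, and FAS1, a fatty acid synthase subunit, fell by 0.68 ± 0.13 (SE; adjusted p = 0.00375) and 0.57 ± 0.11 (SE; adjusted p = 0.00420). Ergosterol genes fell in 7 of 28 cases, against 15.7% of all transcripts, led by ERG28 (-0.70 ± 0.12), and in fewer cases without untreated replicate 2.

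All 4 alpha-cell genes fell: beside the alpha-factor genes, the agglutinin SAG1 had 402 and 406 normalized counts in the perchlorate libraries, against 793 and 1222 in the untreated libraries (-1.28 ± 0.18), and the a-factor receptor STE3 fell by 0.79 ± 0.10 (SE; adjusted p = 3.87e-04). The pheromone-induced fusion gene PRM1 rose by 1.93 ± 0.22, while the cell cycle inhibitor FAR1 fell by 1.31 ± 0.15 (SE; adjusted p = 2.39e-04). In the cell cycle list 9 of 29 rose and 7 fell, against 18.0% and 15.7% of all transcripts. The daughter cell genes DSE1 and DSE2 rose by 1.45 ± 0.15 and 1.10 ± 0.13 and the G1 cyclin PCL1 by 1.39 ± 0.10; the falls were 4 without perchlorate replicate 2 or with total count scaling. Of 18 meiosis and sporulation genes 7 rose and 1 fell, and the summed reads of 10 sporulation markers were 1005 and 1030 with perchlorate against 616 and 562 untreated.

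Of 47 stress and nutrient regulators 15 rose and 9 fell, where 18.0% of all transcripts rose and 15.7% fell. With a spread from 8 libraries 9 rose and 5 fell. After MET28, MET32 and SIP4 (2.43 ± 0.14), an activator of gluconeogenic genes, the largest rises were CRF1 (2.29 ± 0.16), a corepressor of ribosomal protein genes, and NRG1 (1.21 ± 0.10), a glucose repressor. CIN5, ZAP1 and RPH1 rose by 0.87 ± 0.12, 0.79 ± 0.12 and 0.72 ± 0.10, and the corepressor CYC8 fell by 0.71 ± 0.11 (SE; adjusted p = 0.00155). CAT8 (0.76 ± 0.26) lost its call without perchlorate replicate 1 (adjusted p = 0.0835), without untreated replicate 2 (0.133) or with that spread (0.247). The falls were 4 without perchlorate replicate 2 and 5 without untreated replicate 1 or with total count scaling.

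The response of the mutant was then set against that of WT. The interaction, the mutant's log2 change minus that of WT over 8 libraries, passed for 145 of 5615 transcripts (2.58%), 106 with a higher and 39 with a lower value in the mutant. Of the 106, 71 rose in the mutant, 30 were not called there and 5 fell. Of the 39, 22 fell, 6 were not called and 11 rose. Without 1 library the total ran from 73 to 404, the highest without WT untreated replicate 1. A difference in starting level or strain markers between mutant and WT cannot be told apart from one in response to perchlorate.

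Genes of sulfate uptake and reduction had a higher value in the mutant in 6 of 11 cases, as had single genes of phosphate uptake and vitamin B6 synthesis. In the phosphate uptake list 1 of 6 genes passed, PHO84, which is uncertain. No gene passed of 16 for polyphosphate and phosphate signalling, of 11 for cysteine and glutathione or of 7 sulfur regulators. Of all transcripts 2.58% passed, so lists this small without a pass are not set apart from them. For thiamine and vitamin B6 3 of 22 passed. PHO84 changed by 5.50 ± 0.22 in the mutant and 2.65 ± 0.26 in WT, an interaction of 2.86 ± 0.43 (SE; adjusted p = 0.00856). SNO1 changed by 3.28 ± 0.21 against 0.54 ± 0.25 (2.73 ± 0.34), SNZ1 by 2.96 ± 0.18 against 1.06 ± 0.14 (1.91 ± 0.27) and YCT1 by 3.34 ± 0.19 against 1.17 ± 0.15 (2.17 ± 0.27). MET17 had 51 reads in WT perchlorate replicate 2 and 0 in every other WT library. The same library held 23 reads of LEU2, against 0 in the others, and the source of these reads was not tested. The count of 6 sulfate genes was 3 without WT perchlorate replicate 1 or either mutant perchlorate library, and 10 without WT untreated replicate 1. MET10 was at 2.54 ± 0.09 in the mutant and 1.27 ± 0.14 in WT, an interaction of 1.28 ± 0.14 (SE; adjusted p = 0.00209), and MET6 at 1.42 ± 0.10 and 0.05 ± 0.16 (1.37 ± 0.19).

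In some other genes a higher value in the mutant went with a lower count with perchlorate in WT. Among 24 purine genes 8 passed, all with a higher value in the mutant. IMD2 changed by -0.80 ± 0.12 in the mutant and -3.06 ± 0.20 in WT, an interaction of 2.25 ± 0.24 (SE; adjusted p = 0.00209), where both were negative. ADE17, a late purine enzyme that was not called in the mutant, had 972 and 1065 normalized counts in the mutant's perchlorate libraries, against 1405 and 1062 in its untreated libraries. In the separately normalized WT table it had 1668 and 1446 in the WT perchlorate libraries, against 7629 and 9361 in the WT untreated libraries, a change of -2.44 ± 0.15 in WT, and an interaction of 2.18 ± 0.22 (SE; adjusted p = 0.00171). Of 15 arginine genes 7 passed, among them ARG56 at 1.01 ± 0.09 against -0.25 ± 0.14 (1.26 ± 0.14). ARG56 rose in the mutant and was not called in WT by limma (adjusted p = 0.203). HIS4, a histidine synthesis gene also not called in the mutant, had 1658 and 1835 normalized counts in the mutant's perchlorate libraries, against 1756 and 1362 in its untreated libraries. In the WT table it had 1709.9 and 1599 in the WT perchlorate libraries, against 6198 and 7254 in the WT untreated libraries, a change of -2.02 ± 0.14 in WT, and an interaction of 2.19 ± 0.20 (SE; adjusted p = 0.00131). The mitochondrial carrier DIC1 rose by 0.73 ± 0.09 in the mutant and was at -1.91 ± 0.13 in WT, an interaction of 2.64 ± 0.14 (SE; adjusted p = 9.30e-05).

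Lower responses were led by HSP30, which fell by 2.47 ± 0.25 (SE; adjusted p = 1.28e-04) in the mutant and was at 0.96 ± 0.41 in WT, an interaction of -3.43 ± 0.67 (SE; adjusted p = 0.0302). That interaction passed without WT untreated replicate 1 or 2 or mutant untreated replicate 2 and did not pass without any of the other 5 libraries (adjusted p = 0.0639 to 0.112). YER053C-A, TDA6, the regulator STP4, the desaturase OLE1 and CIP1 fell in the mutant, at interactions of -2.01 ± 0.29, -1.92 ± 0.28, -1.71 ± 0.26, -1.64 ± 0.23 and -1.56 ± 0.24. NCA3 rose in both, by 1.12 ± 0.09 in the mutant and 2.71 ± 0.15 in WT (-1.59 ± 0.17). KAR2 was at -1.01 ± 0.09 in the mutant and 0.09 ± 0.13 in WT, an interaction of -1.10 ± 0.13 (SE; adjusted p = 0.00258). The mating genes MFA2 (2.18 ± 0.40) and STE3 (-1.55 ± 0.17) also passed, with 124 to 184 reads of MFA2 in the mutant against 1333 to 6391 in WT, and 2684 to 4464 reads of STE3 in the mutant against 126 to 278 in WT. MFA2 lost its call without WT perchlorate replicate 1 (adjusted p = 0.0550), mutant perchlorate replicate 2 (0.0825) or mutant untreated replicate 2 (0.0822).

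**Figure D5:**
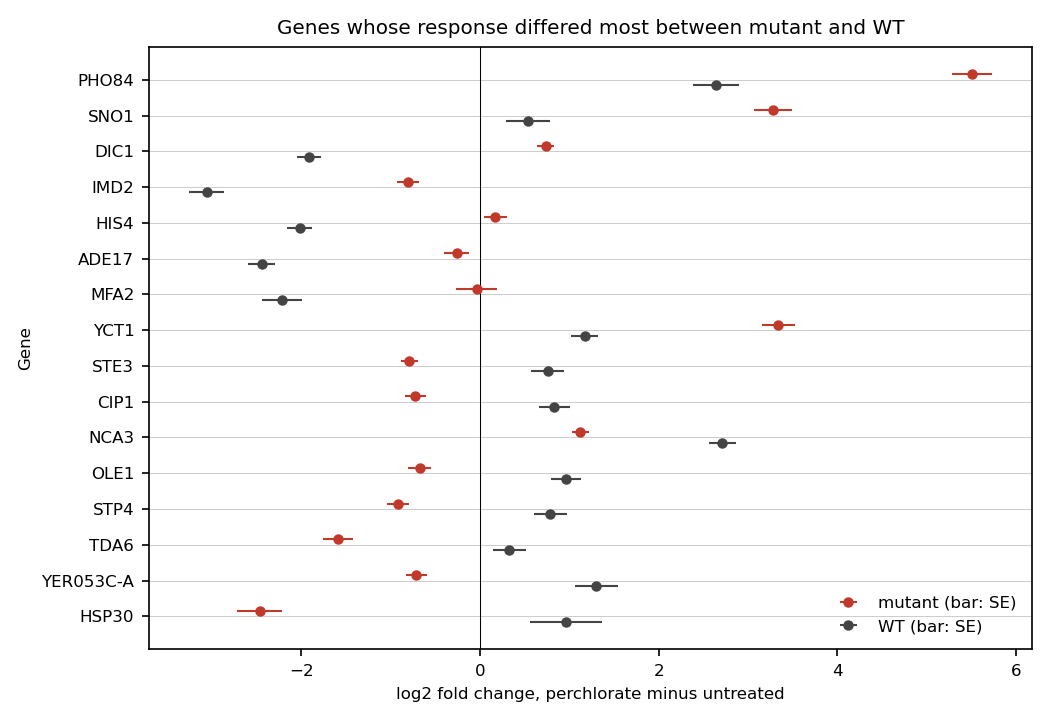
Log2 fold change, perchlorate minus untreated, with its SE (horizontal axis), of the 8 genes with the most positive and the 8 with the most negative interaction (rows), in the mutant (red) and in WT (dark grey). PHO84 lies at 5.50 in the mutant and 2.65 in WT, and HSP30 at -2.47 and 0.96.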

How the data were processed

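RNA was extracted with hot phenol and libraries were made with a directional kit (NEBNext Ultra II), per the labels. Reads passed FastQC, Trim Galore and HISAT2, per the submitters' processing notes. Which program counted the reads, on which strand and against which genome build is not given in the sources used here. The deposited values are a normalized count signal per transcript, which the authors obtained from DESeq2 (1.34.0 in the summary sheet, per the file headers). Dividing them by the value of 1 read gave whole reads (100.0% within 0.01). The authors' deposited log2 fold change and p-value or q-value columns served for 1 check. Among the transcripts tested here, the authors' deposited table had 575 that rose and 245 that fell at a q of at most 0.01 and a log2 change of at least 0.5. Of these, 575 and 245 were called the same way here. Both used the same libraries, and the authors' limits were stricter than an adjusted p under 0.05 with no fold limit, so this match was likely in advance.

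The main test was limma 3.58.1 (R 4.3.3) with an intensity trend on log2(value + 1), which understates changes of low transcripts, for means of at least 10, with Benjamini-Hochberg adjustment over all transcripts tested and an adjusted p under 0.05. Its SEs and p-values are moderated, mixing each transcript's own spread with that of transcripts of similar abundance. A given SE can therefore be smaller or larger than the transcript's own replicates would give. Tables used Python 3.11.15, pandas 2.3.3 and numpy 2.4.6. The interaction used a WT table normalized separately by the authors, each change being taken within its own table. edgeR 4.0.16 on the recovered reads called 1936 transcripts, and DESeq2 1.42.0 called 1685. The scripts were tested on simulated data. With 2 libraries against 2, an exact permutation test of 1 value cannot go below a p of 0.3333, so none was used. Of 5943 transcripts, 5920 matched the RefSeq R64 annotation by accession and 23 by locus tag, and some results are not reported here. Genes with a near-identical copy (287) or overlapping another gene (174) are called uncertain where named.

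Members and gene lists were chosen with earlier results of these data known. Named genes were the 15 largest rises and 15 largest falls among called transcripts with a mean of at least 50 and groups that do not overlap, up to 4 largest called members of each list, up to 12 called regulators, isozyme pairs with opposite calls, and the 8 most positive and 8 most negative interactions. BUD23, FAA4, GAL2, GUP2, IGO1, SAH1, SAM4, THI7 and YHB1, members of a list that moved against the others or stood among few calls, were chosen after their values were seen, as were DUR12 and ASP1. The libraries were 14429449 to 15483920 reads deep, so transcripts near the minimum mean carry few reads and precision there is limited by counting. Alternatives in scaling, filter, pseudocount, test and libraries are given at the end.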

Additional observations from a re-analysis of the deposited data

Results flagged for a closer look

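In 16 genes the response to perchlorate differed between mutant and WT by limma's interaction test, with the largest values in each direction among transcripts with a mean of at least 50 in both tables. The mutant's log2 change was above that of WT by 2.86 for PHO84, 2.73 for SNO1, 2.64 for DIC1, 2.25 for IMD2, 2.19 for HIS4, 2.18 for ADE17, 2.18 for MFA2 and 2.17 for YCT1. It was below that of WT for HSP30 (-3.43), YER053C-A (-2.01), TDA6 (-1.92), STP4 (-1.71), OLE1 (-1.64), NCA3 (-1.59), CIP1 (-1.56) and STE3 (-1.55). Mating type, LEU2 and MET17 also differed between these mutant and WT libraries, and their part in these differences was not tested.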

How the results depend on the processing

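No call among the 329 named genes turned its direction under any of the 15 other settings run. Most of these genes were chosen for their large called changes, and the settings reuse the same libraries, so a turn was unlikely in advance. TMM, edgeR, the smaller pseudocount and the replicate block ended none of these calls, DESeq2 and total count scaling ended 13 each, a fit with no intensity trend 18, and a spread from 8 libraries 31. Leaving out 1 library ended 12 to 25.

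The 1912 changed transcripts became 1579 to 1945 without 1 library, the 1020 rises 851 to 1094 and the 892 falls 648 to 851. Rises of at least 2-fold ran from 283 to 375 and falls from 47 to 53. Falls numbered 591 with a spread from 8 libraries and 548 with total count scaling, which shifted the median of all transcripts by 0.0913 on the log2 scale; why the first count is lower was not tested. The 145 interaction calls ran from 73 to 404 without 1 library, the 106 higher ones from 56 to 186 and the 39 lower ones from 16 to 218; the cause was not tested.

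Replicate numbers are shared by the groups, but 2 pairs do not establish a pairing, and the replicate differences of the groups correlated at 0.119 across transcripts. With the replicate number as a block, 2409 transcripts were called, 1911 of them also called without it, and 67 interactions were lower in the mutant.

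Without the 10 most abundant transcripts, ribosomal proteins held 14.6% of reads with perchlorate and 19.3% untreated, in place of 13.2% and 17.2%. General stress effectors held 2.83% with perchlorate in place of 2.57%. Sulfate genes held 0.305% with perchlorate and 0.0610% untreated in place of 0.277% and 0.0542%, and translation factors 3.21% and 4.02% in place of 2.91% and 3.57%. These shares grew because the total shrank. Counts of list members moved by more than 1.5 times in 41 of 164 cases without untreated replicate 2 and in 39 with total count scaling. Trehalose rises were 2, autophagy rises 7, hexose falls 7, Hsf1 falls 8, biogenesis falls 23 and regulator rises 9 with a spread from 8 libraries, and biogenesis falls 33 with no intensity trend. Depth limits transcripts near a mean of 10.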
